A study of Mus musculus with 12 samples.

Results

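Heart failure in which the ejection fraction is preserved (HFpEF) was modelled in mice, and gene expression in their left ventricle was compared with that of non-failing mice, both given vehicle. The comparison took every library titled HFpEF + Veh (4 mice) and every library titled Control + Veh (4 mice), which are 8 of the 12 libraries of the series. All mice were wild-type C57BL6 by the labels and C57BL/6J by the study's methods, and each gave 1 library of left ventricular poly(A) RNA. The labels state neither age nor sex, whereas the study's methods name male mice and give their age at purchase. HFpEF mice were given a high-fat diet and L-NAME (HFD/L-NAME), and controls, by the study's methods, standard chow. Both groups received vehicle by mouth. Both the title of the series and the study describe hearts taken after a single dose, whereas the treatment label gives daily dosing over weeks, and the files do not settle this. Libraries are called C1 to C4 (controls) and V1 to V4 (HFpEF) in the order of the animal numbers. The remaining 4 libraries of the series came from HFpEF mice given the compound TYA-018 and entered only the estimate of spread. Because diet and L-NAME were always given together, their effects cannot be told apart, and the animal numbers of each group lie together, so any cage or date that followed them cannot be told apart from the group.

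A high-fat diet makes mice obese and glucose intolerant, and L-NAME blocks the nitric oxide synthases, which normally let vessels relax and raise cyclic GMP in cardiac muscle. In HFpEF the ventricle empties normally but fills against a stiff wall, and a thickened muscle, extra collagen, inflamed small vessels and altered fuel use are the features usually described. The heart muscle cell burns mostly fatty acids in its mitochondria, and its contractile proteins, calcium stores and ion channels set the heartbeat, while fibroblasts make the matrix, endothelial cells line the vessels and resident macrophages clear debris.

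The libraries held between 61.2 and 68.2 M estimated counts. Genes of the mitochondrial DNA took 37.0% to 40.6% of the counts in controls and 43.1% to 47.7% in HFpEF, without overlap, and globin genes took 0.154% to 0.240% and 0.420% to 1.32%. On the first principal component (40.5% of the variance) the HFpEF libraries lay between 14.1 and 24.1, the controls C2 to C4 between -28.8 and -17.6, and control C1 at -2.71. C1 also stood apart from C2 to C4 in marker genes. Its summed cardiomyocyte markers (Myh6, Tnnt2, Tnni3, Actc1 and Myl2) came to 23060 CPM (counts per library total after scaling), against 28560 to 32110 in the other controls and 21880 to 23600 in HFpEF. Counts of called genes that change without C1, by the rule given below, are therefore shown with and without it. Genes called only without C1 are not singled out, nor are changes of sign without it. Against the left ventricular label, the cardiomyocyte markers were high in every library, and atrial markers summed to 23.7 to 33.3 CPM in controls and 20.6 to 24.8 CPM in HFpEF.

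Markers of other cell types moved with the group. Red cell markers summed to 1553 to 2309 CPM in controls and 4788 to 14150 CPM in HFpEF, and all 7 rose. Macrophage markers summed to 58.1 to 70.8 CPM in controls and 90.4 to 113 CPM in HFpEF, and all 5 rose. Endothelial markers came to 672 to 763 CPM in controls and 822 to 990.2 CPM in HFpEF with 3 of 5 rising, and pericyte markers to 679 to 749.8 CPM in controls and 825 to 857 CPM in HFpEF with 2 of 5 rising. Fibroblast markers overlapped between groups (548 to 932 CPM in controls and 884 to 1275 CPM in HFpEF, 2 of 5 rose). Liver plasma protein genes summed to 29.1 to 82.6 CPM in controls and 2.55 to 14.04 CPM in HFpEF, and 5 of 6 fell. B cell markers were low, at 1.64 to 2.22 CPM in controls and 0.945 to 1.26 CPM in HFpEF (1 of 3 tested fell), and mesothelial markers came to 6.38 to 7.91 CPM in controls and 8.73 to 12.3 CPM in HFpEF (1 of 2 tested rose), both without overlap. Skeletal muscle markers stood at 16.4 CPM in V2 and between 1.04 and 2.20 CPM in the other 7 libraries. In bulk tissue, fewer cells of a type and less RNA per cell cannot be told apart, and the part of these shifts in the gene results was not tested.

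**Figure D1:**
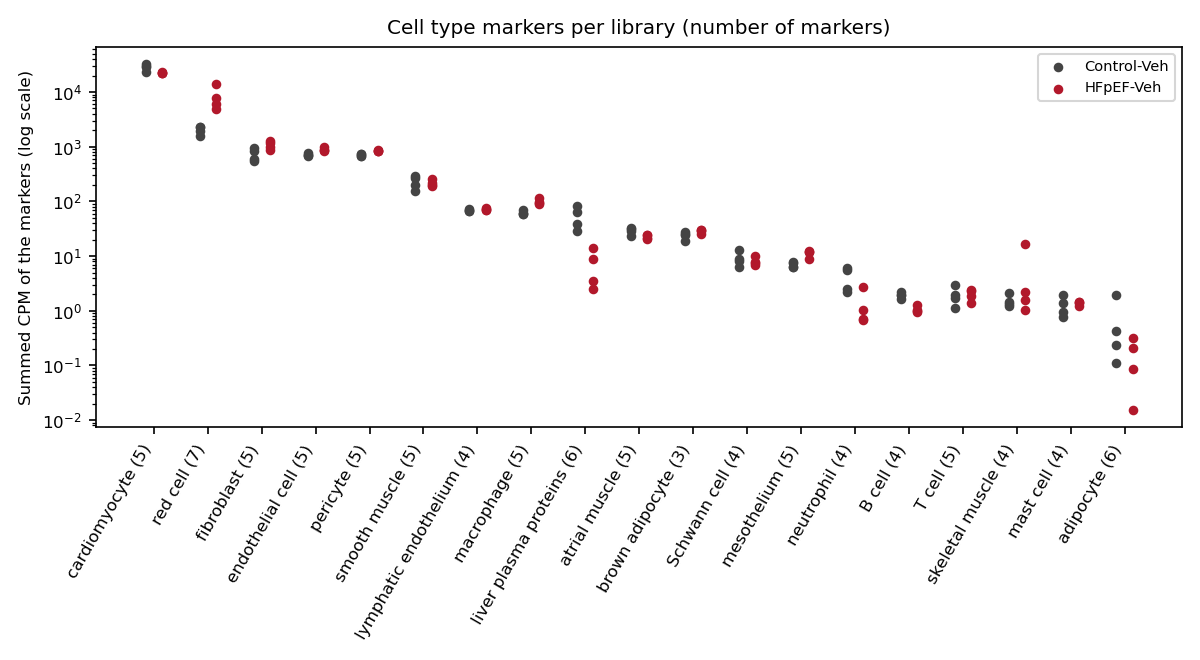
Summed CPM (log scale) of the marker genes of each cell type in the 4 control and 4 HFpEF libraries, 1 point per library, with the number of markers in brackets. Red cell and macrophage markers were higher in every HFpEF library than in any control, liver plasma protein genes were lower, and fibroblast markers overlapped.

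Of 14333 genes tested, 3033 (21.2%) were called at an edgeR adjusted p under 0.05, 1561 (10.9%) higher and 1472 (10.3%) lower in HFpEF. At an unadjusted p under 0.05 there were 5093. Most changes were small, with a median absolute log2 fold change of 0.45 among called genes and of -0.011 (signed) over all genes tested, and 428 genes (2.99%) were called at 2-fold or more, 226 higher and 202 lower. The 4 values of one group did not overlap the 4 of the other for 3374 genes (23.5%), and for 83.9% of the called genes. Of the calls, 1671 (55.1%) were kept in each of the 8 fits that left out 1 library. Without C1 alone there were 3992 calls. With the deposited effective gene lengths as an offset there were 1445. These lengths differed between the groups, since the median log2 length of a library relative to each gene's mean was -0.059 to 0.014 in controls and 0.036 to 0.11 in HFpEF, and the part of this shift in the calls was not tested. Limma on log2(TPM + 1) gave 172, of which 29.7% were higher against 51.5% here. Limma was also run on log2(TPM + 0.1), and these fits are called the TPM scales. In brackets after a count of genes stands the count without the named library, or with effective lengths, where it differed by over 1.5 times and either count was above 2. The brackets leave out the TPM scales, on which fewer genes were called. There, 0 and 1 thick and thin filament genes fell. Rises there were 1 and 3 for collagen chains, 0 and 0 for matrix proteases, and 10 and 13 for proliferation genes. The median of all genes was -0.069 and -0.17 on the TPM scales. With the genes ordered by their longest transcript in 4 groups of equal size, from short to long, 7.88%, 11.2%, 12.9% and 11.6% rose, and the part of transcript length in the calls was not tested.

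**Figure D2:**
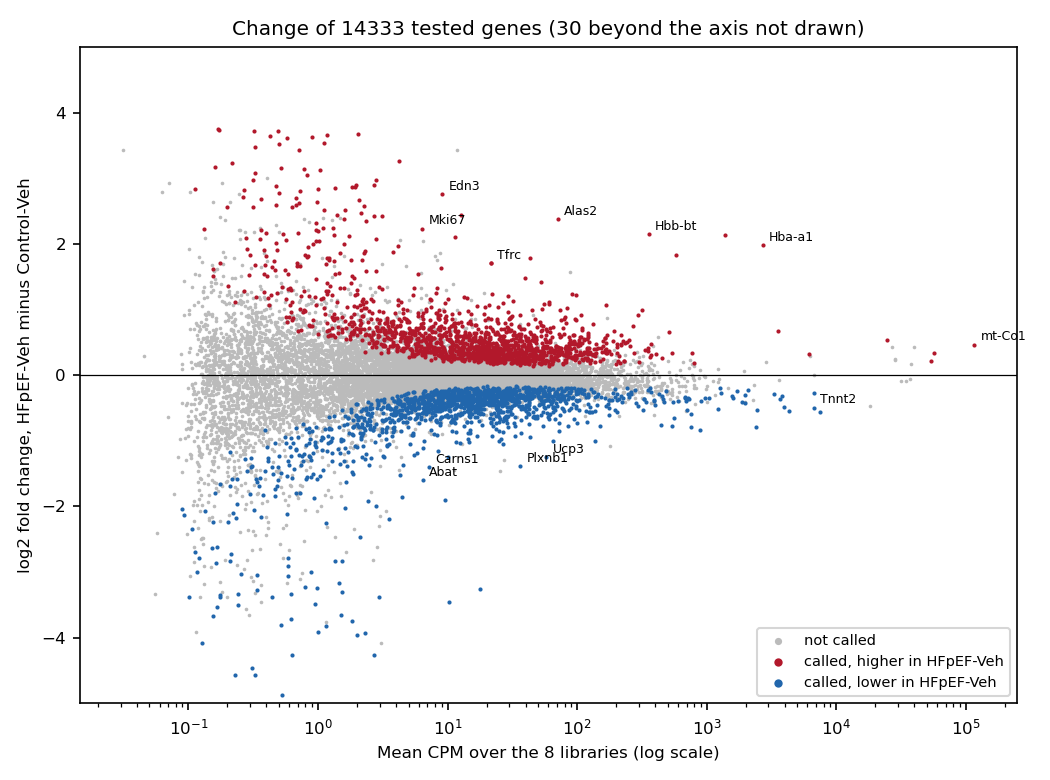
Log2 fold change (HFpEF minus control) against mean CPM over the 8 libraries (log scale) for each tested gene. Red points were called higher (1561), blue points lower (1472), and 30 genes beyond the axis are not drawn.

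The rise of Edn3 led the genes that met the naming rule (called, protein-coding, at least 5 CPM on average, groups apart and the call kept without any 1 library). Edn3 encodes endothelin 3, a vasoactive peptide, and lies at chr2:174760619-174784042 (GRCm38, plus strand). It had 2.31, 2.76, 2.49 and 1.84 CPM in C1 to C4 and 11.5, 16.2, 18.1 and 17.7 CPM in V1 to V4 (log2 fold change 2.76 ± 0.18, edgeR adjusted p 1.56e-05). Here and below, the value after ± is a standard error derived from the edgeR test, not the spread among mice. All 4 HFpEF libraries lay above the 4 controls. Its level remained low, at a mean TPM (the share of transcripts, scaled by length) of 0.171 in controls and 1.26 in HFpEF. Tfrc, the transferrin receptor through which cells take up iron (chr16:32608920-32632794), had 9.93, 9.84, 11.1 and 9.76 CPM in C1 to C4 and 24.4, 31.4, 45.8 and 30.97 CPM in V1 to V4 (log2 fold change 1.71 ± 0.18, edgeR adjusted p 4.12e-04). The HFpEF values did not overlap the control values and were all higher. The mean TPM of Tfrc differed less, at 0.771 in controls and 1.34 in HFpEF. With effective lengths and on the TPM scales Tfrc was not called. Most of the other genes with the largest rises belong to red cells, namely the haemoglobin genes Hba-a1 (1.98 ± 0.28), Hba-a2 (1.84 ± 0.29), Hbb-bs (2.14 ± 0.32) and Hbb-bt (2.15 ± 0.31) and the haem synthesis gene Alas2 (2.38 ± 0.35). Fam46c (2.10 ± 0.32), Ube2l6 (1.71 ± 0.24) and the proliferation marker Mki67 (2.23 ± 0.25) also had large rises. Hba-a1 and Hba-a2 share almost all of their sequence, so the split of reads between them is uncertain.

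Among genes meeting the rule, the falls were smaller in size than the rise of Edn3. Abat, which breaks down the transmitter GABA (chr16:8513429-8621568), had 8.63, 11.4, 9.998 and 8.77 CPM in C1 to C4 and 2.32, 3.62, 4.09 and 2.74 CPM in V1 to V4 (log2 fold change -1.60 ± 0.20, edgeR adjusted p 5.60e-04). Carns1, which makes the muscle dipeptide carnosine (chr19:4164324-4175479), had 9.62, 11.3, 10.1 and 11.05 CPM in C1 to C4 and 3.09, 4.03, 4.97 and 3.82 CPM in V1 to V4 (log2 fold change -1.40 ± 0.18, edgeR adjusted p 7.28e-04). Ucp3, an uncoupling protein of the inner mitochondrial membrane (chr7:100472990-100486432), had 75.4, 86.3, 80.7 and 84.2 CPM in C1 to C4 and 45.3, 33.4, 29.97 and 28.4 CPM in V1 to V4 (log2 fold change -1.25 ± 0.18, edgeR adjusted p 0.00110). For these 3 genes each HFpEF value was below each control. The other large falls were those of the semaphorin receptor Plxnb1 (-1.39 ± 0.15), the muscle chloride channel Clcn1 (-1.25 ± 0.25), the aminoacylase Acy1 (-1.21 ± 0.25), the Wnt pathway gene Dixdc1 (-1.11 ± 0.22), Krba1 (-1.05 ± 0.15), the kinase Prkcq (-1.04 ± 0.12), the slow skeletal troponin T gene Tnnt1 (-1.04 ± 0.11) and Cenpf (-1.02 ± 0.19), a centromere protein gene that fell while most proliferation genes rose. Plxnb1 was higher in V1 (25.1 CPM) than in the other HFpEF libraries. The mean TPM of Acy1 differed less than its CPM, at 1.87 in controls and 1.30 in HFpEF.

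**Figure D3:**
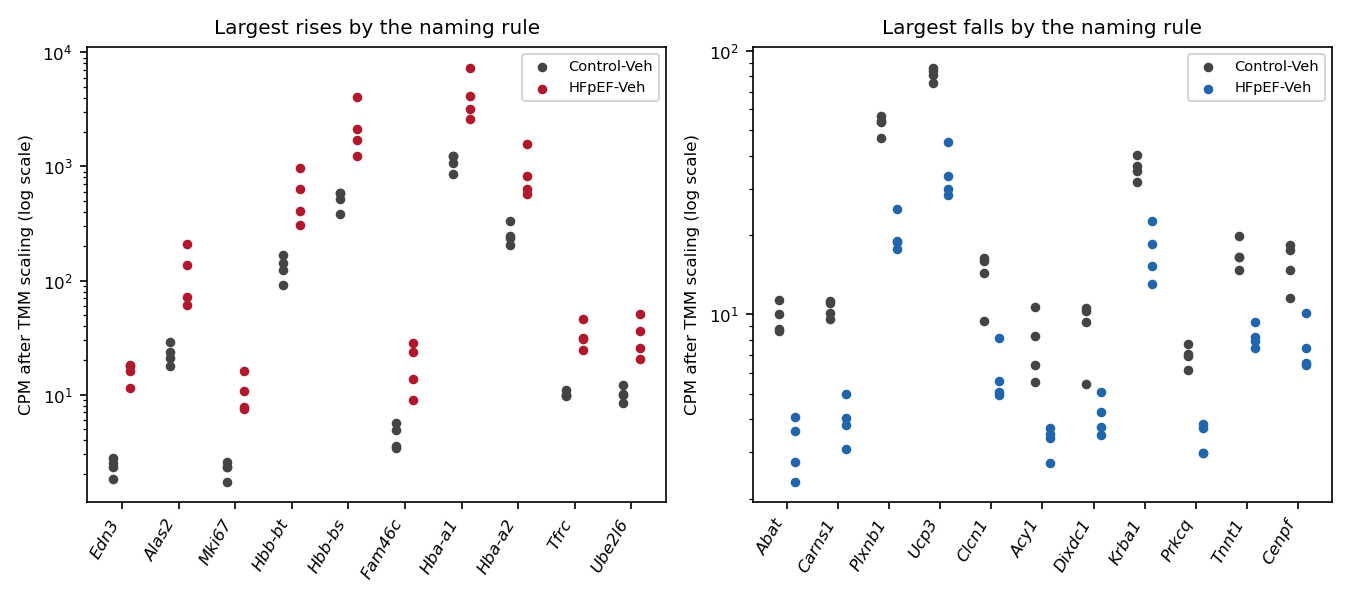
CPM after scaling (log scale) of 10 genes with a large rise (left) and 11 with a large fall (right) by the naming rule, with 1 point per library. Control and HFpEF points do not overlap for any of these genes, as the rule required.

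Among abundant genes the changes were smaller. The most abundant gene meeting the rule was mt-Co1, a subunit of complex IV encoded in mitochondrial DNA, with a mean TPM of 19947 in controls and 25874 in HFpEF (log2 fold change 0.47 ± 0.11, edgeR adjusted p 0.0133). The troponin genes Tnnt2 (mean TPM 6343 in controls and 3935 in HFpEF) and Tnni3 (4938 in controls and 3003 in HFpEF) fell by 0.49 and 0.55 on the log2 scale. The other abundant genes that fell were Atp5b (-0.28 ± 0.074), the catalytic chain of ATP synthase, Tcap (-0.53 ± 0.12), which caps titin at the Z-disc, and Slc25a4 (-0.49 ± 0.10), which exchanges ADP and ATP across the inner mitochondrial membrane. Ckm (-0.51 ± 0.10), the muscle creatine kinase, also fell and was looked up after its values were seen.

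**Figure D4:**
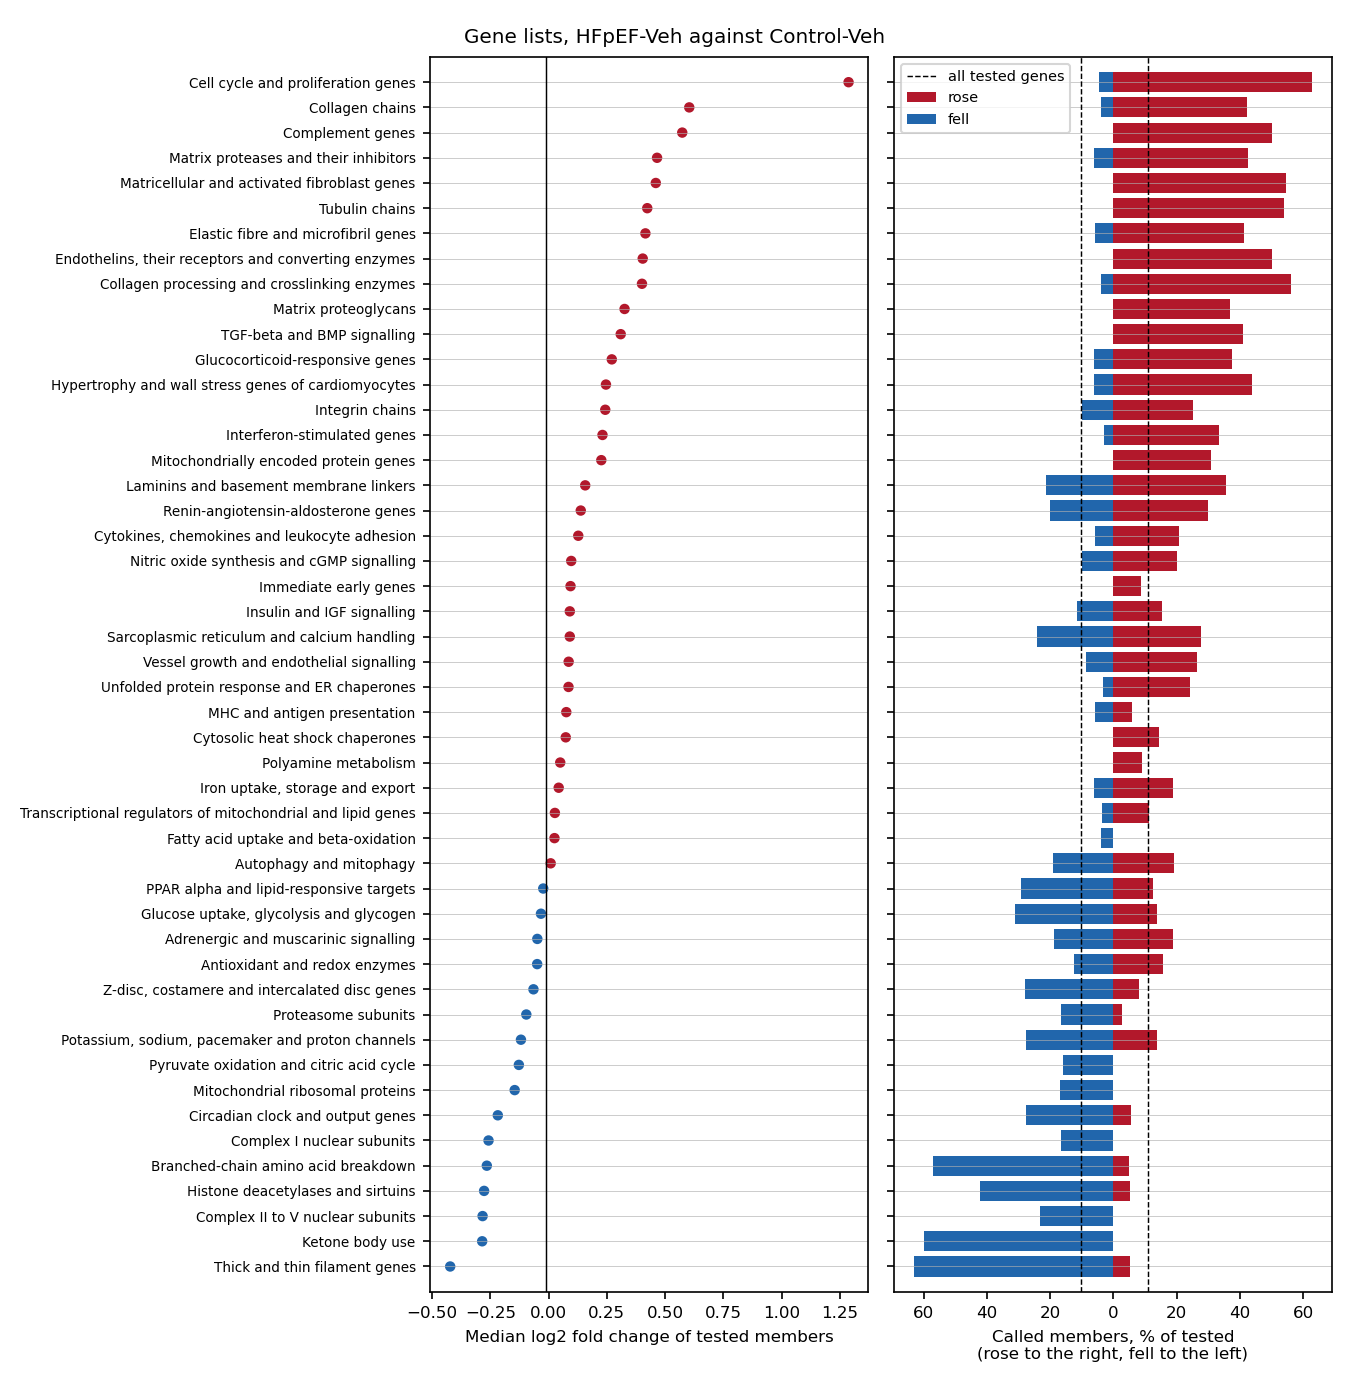
The 48 gene lists ordered by median log2 fold change (left, HFpEF minus control, line at the median of all genes) and the percentage of tested members called higher (right side, red) or lower (left side, blue). Dashed lines mark the 10.9% higher and 10.3% lower of all genes tested.

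Genes that heart muscle switches on under load did not move together. Of the 16 stress genes tested, 7 rose, 1 fell and 8 were not called, with a median log2 fold change of 0.25, but -0.021 on log2(TPM + 1). Nppb, which encodes the natriuretic peptide BNP (chr4:147985788-147987205), had 22.7, 36.6, 32.6 and 22.4 CPM in C1 to C4 and 97.8, 45.5, 94.1 and 66.7 CPM in V1 to V4 (log2 fold change 1.41 ± 0.30, edgeR adjusted p 0.00675). Every HFpEF library exceeded every control. Nppa, which encodes the peptide ANP (chr4:148000722-148002079), had 124, 242, 186 and 211 CPM in C1 to C4 and 59.5, 145, 104 and 139 CPM in V1 to V4 (log2 fold change -0.77 ± 0.25, edgeR adjusted p 0.0458), in the opposite direction and with overlap between groups. Acta1, the skeletal actin of the fetal heart, had 48.3, 169, 135 and 82.95 CPM in C1 to C4 and 161, 269.7, 276 and 201 CPM in V1 to V4 (log2 fold change 1.06 ± 0.34, edgeR adjusted p 0.0426), and its groups overlapped too. Myh7, the slow myosin heavy chain that is the classic marker of load in mice, had 161, 206, 193 and 125 CPM in C1 to C4 and 68.9, 278, 159.6 and 263 CPM in V1 to V4 (log2 fold change 0.17 ± 0.33, edgeR adjusted p 0.755) and was not called. Its HFpEF values reached both below and above the range of the controls. Gdf15, a stress cytokine, had 0.529, 0.953, 0.584 and 0.540 CPM in C1 to C4 and 1.599, 4.87, 4.92 and 4.24 CPM in V1 to V4 (log2 fold change 2.58 ± 0.40, edgeR adjusted p 0.00160). No control reached the lowest HFpEF value. Rcan1, which reports calcineurin activity (0.40 ± 0.077), the TWEAK receptor gene Tnfrsf12a (0.68 ± 0.13), Abra (0.70 ± 0.16) and Fhl1 (0.33 ± 0.073) rose, and Xirp2 (0.092 ± 0.092) was not called. Ankrd1, usually abundant in loaded muscle, was listed at 0 in C1, C3, V1 and V2, so no fold change is given. Calls lost with 1 library left out, by edgeR, were those of Nppa (without C2, C3, C4, V1 or V3, adjusted p up to 0.128) and Acta1 (without C1, C3, C4, V2, V3 or V4, adjusted p up to 0.113).

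Most contractile protein genes fell. Of the 19 thick and thin filament genes tested, 1 rose, 12 fell and 6 were not called, and the median was -0.42. Myh6, the fast myosin heavy chain that drives the adult mouse heart, had 1111, 1441, 918 and 1090 CPM in C1 to C4 and 705, 678, 528 and 633 CPM in V1 to V4 (log2 fold change -0.84 ± 0.17, edgeR adjusted p 0.00528). All 4 HFpEF libraries lay below the 4 controls. Tnnt2, cardiac troponin T, had 6932, 8417, 7567 and 8368 CPM in C1 to C4 and 5425, 5443, 5518 and 5844 CPM in V1 to V4 (log2 fold change -0.49 ± 0.072, edgeR adjusted p 0.00114). Myom2, which crosslinks thick filaments at the M-line, had 639.7, 742, 695 and 668 CPM in C1 to C4 and 322, 396, 412 and 478 CPM in V1 to V4 (log2 fold change -0.77 ± 0.11, edgeR adjusted p 0.00108). C1 was the lowest control for both Tnnt2 and Myom2. Titin Ttn (-0.40 ± 0.087), the myosin light chains Myl2 (-0.57 ± 0.14) and Myl3 (-0.79 ± 0.20), cardiac troponin I Tnni3 (-0.55 ± 0.11), myosin binding protein Mybpc3 (-0.30 ± 0.075) and tropomyosin Tpm1 (-0.27 ± 0.078) also fell, and cardiac actin Actc1 (0.32 ± 0.10) rose. The groups overlapped for Myl2, Myl3 and Actc1. Single libraries decided the edgeR calls of Tpm1 (without C2, C4, V1, V2 or V3, adjusted p up to 0.0875) and Actc1 (without C1, C2, C4, V3 or V4, adjusted p up to 0.103).

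At the Z-disc and the intercalated disc, where cells are anchored and coupled, 2 rose, 7 fell (4 without C4, 3 with effective lengths) and 16 were not called of 25 genes tested (median -0.065). Gja1, the connexin 43 of gap junctions, had 125, 118, 119 and 104 CPM in C1 to C4 and 90.97, 79.4, 84.9 and 101 CPM in V1 to V4 (log2 fold change -0.38 ± 0.086, edgeR adjusted p 0.00910). The HFpEF values did not overlap the control values and were all lower. The desmosome genes Dsg2 (-0.59 ± 0.097), Pkp2 (-0.25 ± 0.062) and Dsc2 (-0.39 ± 0.099) and desmin Des (-0.28 ± 0.073) fell, while vinculin Vcl (0.35 ± 0.089) rose and Actn2 (-0.16 ± 0.069) was not called. In edgeR fits without 1 library, calls were lost for Dsc2 (without C4, adjusted p up to 0.0574), Des (without C4, adjusted p up to 0.0572) and Vcl (without C2 or V3, adjusted p up to 0.0531).

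For calcium handling the counts in each direction were nearly equal. Of the 29 genes tested, 8 rose (5 without C4, 2 with effective lengths), 7 fell and 14 were not called (median 0.091, but -0.19 and -0.21 on the TPM scales, just below 0 with effective lengths). The calcium pump of the sarcoplasmic reticulum, Atp2a2 (-0.077 ± 0.090), its release channel Ryr2 (-0.18 ± 0.092) and the kinase Camk2d (-0.026 ± 0.071) were not called. Phospholamban Pln (-0.24 ± 0.079), which restrains the pump, and the L-type channel Cacna1c (-0.45 ± 0.12) fell. Cacnb2, a subunit of that channel, had 36.9, 45.2, 48.3 and 43.7 CPM in C1 to C4 and 26.1, 20.1, 21.3 and 24.1 CPM in V1 to V4 (log2 fold change -0.93 ± 0.12, edgeR adjusted p 7.20e-04). Every HFpEF library was below every control. Triadin Trdn (-0.41 ± 0.062), Camk2a (-0.47 ± 0.077) and the calcium-binding protein gene Hrc (-0.33 ± 0.080) fell, and calsequestrin Casq2 (0.31 ± 0.068) and Stim1 (0.41 ± 0.067), which senses the store, rose. Slc8a1, the sodium-calcium exchanger, was listed at 0 in all 8 libraries, and no value is given for it. Leaving out 1 library ended the edgeR calls of Pln (without C2, C3, C4, V1, V2, V3 or V4, adjusted p up to 0.112) and Cacna1c (without C2, C4, V2 or V3, adjusted p up to 0.0680).

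Ion channel genes fell more often than they rose. Of 36 potassium, sodium, pacemaker and proton channel or transporter genes tested, 5 rose (3 with effective lengths), 10 fell (6 with effective lengths) and 21 were not called (median -0.12). Kcnv2, a modifier subunit of potassium channels, had 17.8, 18.4, 19.9 and 19.96 CPM in C1 to C4 and 12.2, 8.51, 7.88 and 10.03 CPM in V1 to V4 (log2 fold change -0.98 ± 0.11, edgeR adjusted p 4.63e-04). Kcnip2, which is needed for the transient outward current, had 77.2, 111, 94.5 and 92.8 CPM in C1 to C4 and 54.1, 47.3, 55.5 and 51.5 CPM in V1 to V4 (log2 fold change -0.85 ± 0.10, edgeR adjusted p 5.21e-04). The HFpEF libraries were below the controls for both. The inward rectifier Kcnj2 (-0.34 ± 0.083), Cacna1g (-0.43 ± 0.097) and Trpm7 (-0.45 ± 0.065) fell. Kcna5 (0.41 ± 0.048), the sodium channel subunit Scn4b (0.52 ± 0.11) and the pacemaker channel Hcn4 (0.56 ± 0.12) rose. Kcnd2 (-0.48 ± 0.20), the pore of the transient outward current, was not called.

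Endothelin genes rose on both the ligand and the receptor side. Besides Edn3, endothelin 1 (Edn1), the main endothelial vasoconstrictor, had 2.93, 3.33, 3.91 and 3.87 CPM in C1 to C4 and 5.54, 5.66, 6.26 and 7.22 CPM in V1 to V4 (log2 fold change 0.81 ± 0.17, edgeR adjusted p 0.00592). Ednra, the receptor on muscle cells, had 23.3, 18.5, 22.5 and 20.6 CPM in C1 to C4 and 27.5, 26.8, 31.9 and 35.6 CPM in V1 to V4 (log2 fold change 0.52 ± 0.10, edgeR adjusted p 0.00498). All HFpEF values of both genes exceeded the controls. Ednrb (0.23 ± 0.13) was not called. Of the 6 endothelin genes tested, 3 rose, 0 fell and 3 were not called, with a median of 0.40.

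Of the nitric oxide synthases, which L-NAME inhibits, only Nos3 was called. Nos3, the endothelial nitric oxide synthase, had 52.1, 47.8, 47.9 and 51.3 CPM in C1 to C4 and 56.2, 56.9, 55.7 and 54.7 CPM in V1 to V4 (log2 fold change 0.17 ± 0.046, edgeR adjusted p 0.0246). The neuronal and inducible synthases Nos1 (0.10 ± 0.95) and Nos2 (-0.28 ± 0.18) were not called, nor was Pde5a (0.17 ± 0.19), which breaks down cyclic GMP. Gch1 (0.48 ± 0.10), which makes the cofactor of the synthases, and Nostrin (0.72 ± 0.13), which moves Nos3 off the membrane, rose. Arg1, an arginase, had 0.719, 0.323, 1.14 and 0.234 CPM in C1 to C4 and 0.0860, 0.0337, 0.0456 and 0.122 CPM in V1 to V4 (log2 fold change -3.05 ± 0.80, edgeR adjusted p 0.0185), close to 0 in every HFpEF library. Of the 20 genes of nitric oxide and cyclic GMP signalling tested, 4 rose (2 without C3, V2 or V3, 2 with effective lengths), 2 fell and 14 were not called, with a median of 0.097, but -0.035 and -0.10 on the TPM scales. Calls lost with 1 library left out, by edgeR, were those of Nos3 (without C2, C3, V1, V2 or V3, adjusted p up to 0.0759) and Arg1 (without C3, V2 or V3, adjusted p up to 0.0563).

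In the renin-angiotensin-aldosterone group, 3 rose, 2 fell and 5 were not called of 10 genes tested (median 0.14, but -0.0052 and -0.012 on the TPM scales). Agt, the angiotensin precursor, had 4.41, 4.09, 5.09 and 4.79 CPM in C1 to C4 and 6.15, 10.6, 9.71 and 9.86 CPM in V1 to V4 (log2 fold change 0.98 ± 0.17, edgeR adjusted p 0.00256). All 4 HFpEF libraries lay above the 4 controls. The converting enzyme Ace (0.39 ± 0.088) rose, and the angiotensin receptor Agtr1a (-0.35 ± 0.081) and the mineralocorticoid receptor Nr3c2 (-0.72 ± 0.095) fell. Of the 16 adrenergic and muscarinic signalling genes tested, 3 rose (1 with effective lengths), 3 fell (1 without C3) and 10 were not called (median -0.048). The receptor kinase Grk5 (0.36 ± 0.052) and the inhibitory G protein Gnai2 (0.22 ± 0.051) rose, Adra1b (-0.39 ± 0.094) and the muscarinic receptor Chrm2 (-0.40 ± 0.10) fell, and the main cardiac beta receptor Adrb1 (-0.30 ± 0.11) was not called. Single libraries decided the edgeR calls of Chrm2 (without C3, adjusted p up to 0.0508).

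Matrix genes rose more often than they fell. Of the 26 collagen chains tested, 11 rose (17 without C1), 1 fell and 14 were not called, against 10.9% higher among all genes, and the median was 0.60. Col1a1, a chain of the stiff fibrillar collagen I, had 59.9, 42.96, 48.7 and 46.8 CPM in C1 to C4 and 90.5, 116, 85.1 and 102 CPM in V1 to V4 (log2 fold change 0.99 ± 0.13, edgeR adjusted p 7.70e-04). The HFpEF values did not overlap the control values and were all higher. Col3a1, the more compliant fibrillar collagen III, had 73.2, 42.1, 52.9 and 51.4 CPM in C1 to C4 and 103, 167, 119 and 126 CPM in V1 to V4 (log2 fold change 1.23 ± 0.17, edgeR adjusted p 9.75e-04). Every HFpEF library exceeded every control. C1 was the highest control for both genes. Col1a2 (0.85 ± 0.14), Col5a2 (0.93 ± 0.14), the basement membrane chain Col4a2 (0.91 ± 0.076) and the microfibrillar chains Col6a1 (0.67 ± 0.074) and Col6a2 (0.73 ± 0.087) rose. Col4a5 (-0.58 ± 0.098) fell, and Col8a1 (0.62 ± 0.23) and Col4a1 (0.88 ± 0.35), the partner of Col4a2, were not called. Col8a1 and Col4a1 were each called in 1 of the fits that left out 1 library.

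Collagen has to be hydroxylated, folded and crosslinked before it forms a fibre. Of the 25 genes for these steps tested, 14 rose (7 with effective lengths), 1 fell and 10 were not called (median 0.40). The crosslinking oxidase Loxl2 had 10.9, 6.69, 8.18 and 6.87 CPM in C1 to C4 and 17.3, 19.8, 19.7 and 17.9 CPM in V1 to V4 (log2 fold change 1.19 ± 0.13, edgeR adjusted p 4.41e-04). Serpinh1, the chaperone Hsp47 that serves only collagen, had 25.3, 21.8, 18.3 and 15.4 CPM in C1 to C4 and 54.1, 27.1, 34.0001 and 60.9 CPM in V1 to V4 (log2 fold change 1.12 ± 0.26, edgeR adjusted p 0.0103). Both were higher in every HFpEF library than in any control. Loxl1 (0.61 ± 0.089), Lox (0.95 ± 0.28), the hydroxylases Plod1 (0.40 ± 0.045) and P4ha1 (0.45 ± 0.063), the isomerase Fkbp14 (0.98 ± 0.13) and the transglutaminase Tgm2 (0.50 ± 0.081) rose, and Plod2 (0.24 ± 0.084) was not called. In edgeR fits without 1 library, calls were lost for Lox (without C2, C3, C4, V2, V3 or V4, adjusted p up to 0.0845). The sign of the change was not kept under every scaling for P4ha1 (-0.040 on log2(TPM + 1), -0.059 on log2(TPM + 0.1)).

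Among 17 elastic fibre genes, 7 rose (11 without C1), 1 fell and 9 were not called (median 0.42). Fbln5, which assembles elastic fibres, had 1.72, 0.969, 1.10 and 0.788 CPM in C1 to C4 and 3.66, 2.71, 2.23 and 2.73 CPM in V1 to V4 (log2 fold change 1.30 ± 0.24, edgeR adjusted p 0.00375). No control reached the lowest HFpEF value. Mfap5 (1.04 ± 0.14), Ltbp4 (0.42 ± 0.064) and fibrillin 1 Fbn1 (0.71 ± 0.14) rose, the fetal fibrillin Fbn2 (-1.31 ± 0.27) fell, and elastin Eln (0.42 ± 0.21) was not called. Of 19 matrix proteoglycans, 7 rose (3 with effective lengths), 0 fell and 12 were not called (median 0.33, but just below 0 and -0.026 on the TPM scales). Biglycan Bgn (0.75 ± 0.10), syndecan Sdc3 (0.42 ± 0.076), Prelp (0.65 ± 0.15) and versican Vcan (0.66 ± 0.15) rose. Decorin Dcn (0.45 ± 0.17) and lumican Lum (0.72 ± 0.24) were not called, though each was in 1 of the fits that left out 1 library. Scaling turned the sign of Sdc3 (-0.13 with effective lengths, -0.14 on log2(TPM + 1), -0.14 on log2(TPM + 0.1)).

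Matricellular genes, which mark fibroblasts that have been activated, rose without a fall. Of 22 tested, 12 rose, 0 fell and 10 were not called (median 0.46). Postn, periostin, had 23.4, 14.6, 17.5 and 16.1 CPM in C1 to C4 and 31.6, 45.2, 46.8 and 40.9 CPM in V1 to V4 (log2 fold change 1.20 ± 0.14, edgeR adjusted p 5.28e-04). All 4 HFpEF libraries lay above the 4 controls. Cilp, a matrix protein of activated cardiac fibroblasts, had 4.65, 2.37, 2.57 and 2.93 CPM in C1 to C4 and 6.21, 9.96, 7.98 and 7.24 CPM in V1 to V4 (log2 fold change 1.32 ± 0.22, edgeR adjusted p 0.00204). The HFpEF values did not overlap the control values and were all higher. Osteopontin Spp1 had 0.271, 0.469, 0.158 and 0.292 CPM in C1 to C4 and 0.688, 1.40, 0.896 and 0.486 CPM in V1 to V4 (log2 fold change 1.54 ± 0.39, edgeR adjusted p 0.0169). Its HFpEF libraries ranged widely and V2 was the highest. Tenascin Tnc (1.56 ± 0.35), thrombospondin Thbs1 (0.90 ± 0.20), Sparc (0.99 ± 0.15), Fstl1 (0.74 ± 0.11) and the transcription factor Meox1 (0.86 ± 0.13) rose. Ctgf (0.32 ± 0.13) and the smooth muscle actin Acta2 (0.15 ± 0.21), a marker of myofibroblasts, were not called. Ctgf was called in 1 of the fits that left out 1 library. Leaving out 1 library ended the edgeR calls of Spp1 (without V2, adjusted p up to 0.0539).

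Laminins, integrins and matrix proteases had more rises than falls, against 10.9% higher and 10.3% lower among all genes. Among 14 laminins and linkers, 5 rose (2 to 3 without C2, C3, C4 or V3, 3 with effective lengths), 3 fell (0 with effective lengths) and 6 were not called (median 0.16, but just below 0 on log2(TPM + 0.1)). Lamc1 (0.55 ± 0.12) and Lamb1 (0.45 ± 0.11) rose, Lamb3 (-0.73 ± 0.17) and Lama5 (-0.57 ± 0.13) fell, and Lama2 (-0.067 ± 0.20), the laminin of muscle, was not called. Of 20 integrin chains, 5 rose (9 without C1, 3 without C4, 3 with effective lengths), 2 fell and 13 were not called (median 0.24, but just below 0 and -0.013 on the TPM scales). Itgb1 (0.47 ± 0.082), the common beta chain, Itga9 (0.50 ± 0.094) and the leukocyte chain Itgb2 (0.75 ± 0.18) rose, Itgb6 (-0.71 ± 0.17) fell and Itga7 (0.11 ± 0.11) was not called. Of 33 matrix proteases and inhibitors, 14 rose, 2 fell and 17 were not called (median 0.47). The collagenase activator Mmp14 (0.73 ± 0.13), the gelatinase Mmp2 (0.89 ± 0.20), Adam12 (1.41 ± 0.29), Adam15 (0.51 ± 0.069) and the plasminogen activator Plat (0.52 ± 0.079) rose together with the inhibitors Timp1 (1.13 ± 0.22), Timp2 (0.59 ± 0.11) and Timp3 (0.66 ± 0.096). Adamts7 (-0.63 ± 0.12) fell and Timp4 (0.17 ± 0.086) was not called.

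TGF-beta drives matrix production and induces its own inhibitors. Of 39 TGF-beta and BMP signalling genes tested, 16 rose (10 without C2, C4 or V4, 4 with effective lengths), 0 fell and 23 were not called (median 0.31). The ligands Tgfb1 (0.27 ± 0.062), Tgfb2 (0.44 ± 0.14) and Tgfb3 (0.33 ± 0.10) and the receptors Tgfbr2 (0.56 ± 0.13) and Eng (0.53 ± 0.090) rose. Inhibitors of the pathway rose too. Smad6 had 13.2, 12.003, 13.99 and 11.9 CPM in C1 to C4 and 24.1, 25.03, 28.9 and 26.2 CPM in V1 to V4 (log2 fold change 1.03 ± 0.12, edgeR adjusted p 4.53e-04). Smad7 had 17.2, 14.3, 19.2 and 20.7 CPM in C1 to C4 and 35.5, 27.5, 30.4 and 30.9 CPM in V1 to V4 (log2 fold change 0.80 ± 0.14, edgeR adjusted p 0.00250). Skil, which represses Smad targets, had 11.9, 10.3, 13.03 and 12.8 CPM in C1 to C4 and 21.5, 19.9, 20.1 and 19.98 CPM in V1 to V4 (log2 fold change 0.76 ± 0.12, edgeR adjusted p 0.00148). For all 3 inhibitors the groups did not overlap. Calls lost with 1 library left out, by edgeR, were those of Tgfb2 (without C2, C3, C4, V2, V3 or V4, adjusted p up to 0.111) and Tgfb3 (without C2, C3, C4, V2, V3 or V4, adjusted p up to 0.102).

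**Figure D5:**
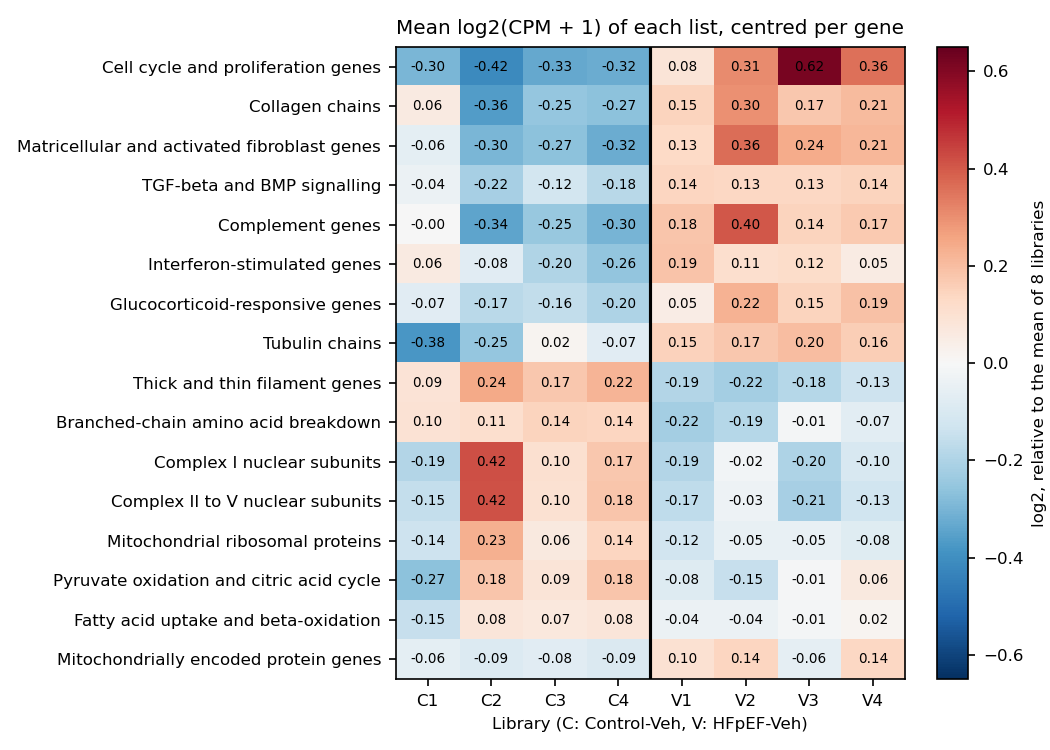
Mean log2(CPM + 1) of 16 gene lists in each library, centred per gene on the 8 libraries (colour and number, log2 units). C1 differs from C2 to C4 in the respiratory chain, citric acid cycle and collagen lists, and V3 has the highest proliferation score (0.62) and V1 the lowest of the HFpEF libraries (0.084).

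Nuclear genes of the respiratory chain were mostly lower on average in HFpEF, and how many were called rested on C1. Of the 36 nuclear subunits of complex I, which passes electrons from NADH, 0 rose, 6 fell (29 without C1, 1 to 3 without C2, C3, C4, V1, V3 or V4, 0 with effective lengths) and 30 were not called, and 35 were lower on average (median -0.26). Of the 39 subunits of complexes II to V, 0 rose, 9 fell (29 without C1, 2 to 4 without C2, C3, C4, V1, V3 or V4, 1 with effective lengths) and 30 were not called, 37 were lower on average, and the median was -0.28. Ndufv1, which binds NADH, had 451, 579.98, 518 and 527 CPM in C1 to C4 and 384, 416, 407 and 413 CPM in V1 to V4 (log2 fold change -0.36 ± 0.088, edgeR adjusted p 0.0141). Atp5c1, the shaft of ATP synthase, had 677, 915, 843 and 872 CPM in C1 to C4 and 638, 669, 622 and 653 CPM in V1 to V4 (log2 fold change -0.36 ± 0.087, edgeR adjusted p 0.0135). In both genes the HFpEF libraries were lower than every control, C1 included. Ndufs7 (-0.52 ± 0.14), Ndufb9 (-0.42 ± 0.12), Ndufb11 (-0.43 ± 0.13), Atp5o (-0.40 ± 0.11), Atp5a1 (-0.23 ± 0.066) and Cyc1 (-0.61 ± 0.17), a subunit of complex III, fell. Ndufs1 (-0.052 ± 0.072), Sdha (-0.17 ± 0.067) and Cox4i1 (-0.30 ± 0.13) were not called. Single libraries decided the edgeR calls of Ndufs7 (without V3, adjusted p up to 0.0653), Ndufb9 (without C2, C4, V1, V3 or V4, adjusted p up to 0.0733), Ndufb11 (without C2, C3, C4, V1, V3 or V4, adjusted p up to 0.0848), Atp5o (without C2, C4 or V3, adjusted p up to 0.0656), Atp5a1 (without C2, C3, C4, V1, V2 or V4, adjusted p up to 0.0707) and Cyc1 (without C2, V3 or V4, adjusted p up to 0.0684).

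The mitochondrial DNA encodes further subunits of the same complexes, and none of these was called lower. Of 13 genes, 4 rose (1 to 2 without C1, C2, C3, C4, V1, V2, V3 or V4, 0 with effective lengths), 0 fell and 9 were not called (median 0.23). On average 9 were higher and 4 lower in HFpEF. Their mean centred log2(CPM + 1) was -0.058 in V3, near the controls (-0.094 to -0.063), and 0.10 to 0.14 in V1, V2 and V4. mt-Co1 had 108572, 86959, 104050 and 90598 CPM in C1 to C4 and 131482, 120949, 132715 and 153909 CPM in V1 to V4, above every control in each HFpEF library. mt-Nd5 (0.53 ± 0.16), mt-Cytb (0.22 ± 0.072) and mt-Nd4 (0.34 ± 0.11) rose, and mt-Nd1 (0.17 ± 0.093) and mt-Atp6 (0.44 ± 0.15) were not called. These counts move with the mitochondrial share of each library given above. Of the mitochondrial ribosome genes, 0 rose, 13 fell (34 without C1, 4 to 7 without C2, C4, V1, V3 or V4, 3 with effective lengths) and 64 were not called of 77 tested (median -0.15). Among them Mrps15 (-0.48 ± 0.097), Mrpl39 (-0.33 ± 0.072), Mrps7 (-0.32 ± 0.076) and Mrpl9 (-0.26 ± 0.050) fell. In edgeR fits without 1 library, calls were lost for mt-Nd5 (without C2, C3, C4, V1, V2, V3 or V4, adjusted p up to 0.102), mt-Cytb (without C1, C2, C3, C4, V1, V2 or V4, adjusted p up to 0.109) and mt-Nd4 (without any 1 library, adjusted p up to 0.116).

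Of 25 genes of pyruvate oxidation and the citric acid cycle, 0 rose, 4 fell (10 without C1, 2 without C2, C3, C4 or V1, 0 with effective lengths) and 21 were not called (median -0.13). The transaminase Got2 (-0.41 ± 0.069), the pyruvate carrier subunit Mpc1 (-0.28 ± 0.064) and Idh2 (-0.35 ± 0.10) fell, and Pdha1 (-0.11 ± 0.061), Cs (-0.16 ± 0.064) and Ogdh (-0.10 ± 0.064) were not called. Fatty acid uptake and beta-oxidation, the main fuel route of the heart, had a single call. Of 25 genes, 0 rose, 1 fell (4 without C1) and 24 were not called (median 0.025, but -0.15 and -0.17 on the TPM scales, just below 0 without C1). Echs1 (-0.26 ± 0.068) fell. The fatty acid transporter Cd36 (0.062 ± 0.18), Fabp3 (0.20 ± 0.098), Acsl1 (0.011 ± 0.083), the carnitine transferase Cpt1b (-0.16 ± 0.090), Acadm (0.045 ± 0.074) and Hadha (0.083 ± 0.075) were not called. Leaving out 1 library ended the edgeR calls of Idh2 (without C2, C3, C4, V1, V2 or V3, adjusted p up to 0.0788) and Echs1 (without C2, V1 or V2, adjusted p up to 0.0545).

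Genes that fatty acids induce through PPAR alpha did not share a direction. Of 24 tested, 3 rose, 7 fell (4 without C4) and 14 were not called (median -0.023, but 0.023 in a fit of the 8 libraries, 0.013 with effective lengths, 0.050 on rescaled coding TPM, 0.018 without C2). Ucp2 (1.02 ± 0.079) rose, and Ucp3, the lipoprotein receptor Vldlr (-0.46 ± 0.078), Ehhadh (-0.72 ± 0.16), the lipase Lpl (-0.36 ± 0.089) and Plin4 (-0.37 ± 0.094) fell. Pdk4, a PPAR alpha target that shuts off glucose oxidation, had 588, 434, 448 and 438 CPM in C1 to C4 and 360.3, 244, 345 and 305 CPM in V1 to V4 (log2 fold change -0.61 ± 0.21, edgeR adjusted p 0.0537). Every HFpEF value was below the controls, but the gene was not called. Angptl4 (0.15 ± 0.21) and Acot1 (0.45 ± 0.21) were not called either. Of 5 ketone use genes tested, 0 rose, 3 fell and 2 were not called (median -0.28). Bdh1 had 71.9, 73.8, 64.3 and 80.7 CPM in C1 to C4 and 43.9, 43.5, 62.1 and 41.96 CPM in V1 to V4 (log2 fold change -0.60 ± 0.15, edgeR adjusted p 0.0141). Oxct1, the enzyme that activates acetoacetate, had 438, 445, 450.2 and 438 CPM in C1 to C4 and 323, 304, 399.6 and 327 CPM in V1 to V4 (log2 fold change -0.39 ± 0.078, edgeR adjusted p 0.00527). Groups did not overlap for either gene. Calls lost with 1 library left out, by edgeR, were those of Plin4 (without C4, adjusted p up to 0.0505).

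Glucose genes fell more often than they rose, against 10.3% lower and 10.9% higher among all genes. Of 29 genes of uptake, glycolysis and glycogen tested, 4 rose, 9 fell (5 with effective lengths) and 16 were not called (median -0.033, but 0.020 with effective lengths, 0.093 on rescaled coding TPM, 0.0094 without V2). Slc2a4, the insulin-responsive transporter GLUT4, had 231, 268, 259 and 265 CPM in C1 to C4 and 193, 197, 201 and 209.5 CPM in V1 to V4 (log2 fold change -0.35 ± 0.065, edgeR adjusted p 0.00346). Eno3, the muscle enolase, had 822, 1108, 929 and 976 CPM in C1 to C4 and 549, 558, 575 and 546 CPM in V1 to V4 (log2 fold change -0.78 ± 0.088, edgeR adjusted p 4.41e-04). Pfkp, a phosphofructokinase more typical of non-muscle cells, had 21.04, 22.6, 27.8 and 29.6 CPM in C1 to C4 and 45.7, 41.2, 59.6 and 45.01 CPM in V1 to V4 (log2 fold change 0.92 ± 0.13, edgeR adjusted p 9.70e-04). For these 3 genes the groups did not overlap. Pfkl (0.49 ± 0.068) and the glycogen targeting subunit Ppp1r3c (1.08 ± 0.17) rose, and Pfkfb1 (-0.59 ± 0.096), Ldhb (-0.54 ± 0.091), the glycogen phosphorylase Pygm (-0.35 ± 0.064) and the transporter Slc2a12 (-0.80 ± 0.19) fell. Slc2a1 (-0.042 ± 0.10) and Pfkfb2 (0.049 ± 0.16) were not called. Ldha had 5.33, 58.1, 70.6 and 42.7 CPM in C1 to C4 and 3.35, 88.1, 213 and 222 CPM in V1 to V4 and was not called, with C1 and V1 far below the other libraries.

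Most genes that break down branched-chain amino acids fell. Of 21 tested, 1 rose, 12 fell (7 with effective lengths) and 8 were not called (median -0.27). Ppm1k, the phosphatase that switches the pathway on, had 39.8, 45.2, 38.9 and 43.01 CPM in C1 to C4 and 23.6, 23.8, 26.4 and 23.8 CPM in V1 to V4 (log2 fold change -0.77 ± 0.062, edgeR adjusted p 8.88e-05). No HFpEF library reached the lowest control. Bckdhb, a subunit of the dehydrogenase it acts on, had 32.5, 39.5, 37.1 and 40.3 CPM in C1 to C4 and 21.01, 19.1, 24.6 and 21.7 CPM in V1 to V4 (log2 fold change -0.79 ± 0.085, edgeR adjusted p 4.12e-04). All 4 HFpEF libraries lay below the 4 controls. Bcat2 (-0.48 ± 0.094), the first enzyme of the route, Ivd (-0.53 ± 0.069), Acadsb (-0.35 ± 0.065) and Hsd17b10 (-0.54 ± 0.11) fell too. The amino acid importer Slc7a5 (0.68 ± 0.13) rose, and Bckdha (-0.27 ± 0.13) and the inhibitory kinase Bckdk (-0.13 ± 0.070) were not called.

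The share of regulators of these programmes that rose was close to that of all genes (10.9%). Of 27 transcriptional regulators of mitochondrial and lipid genes tested, 3 rose, 1 fell and 23 were not called (median 0.027, but -0.084 and -0.12 on the TPM scales, -0.020 without C2, just below 0 without V3, just below 0 without V4). Ppargc1a (0.34 ± 0.16), Ppargc1b (-0.12 ± 0.15), Ppara (0.27 ± 0.28) and Esrrg (-0.13 ± 0.11) were not called, Esrra (-0.20 ± 0.058) fell, and Klf4 (0.72 ± 0.12), Foxo1 (0.39 ± 0.087) and Ppard (0.20 ± 0.063) rose. Of 26 insulin and IGF signalling genes, 4 rose (7 without C1, 1 with effective lengths), 3 fell and 19 were not called (median 0.091, but -0.098 and -0.14 on the TPM scales). Tbc1d4, which holds GLUT4 inside the cell until insulin acts, had 54.6, 67.3, 54.7 and 51.8 CPM in C1 to C4 and 37.4, 23.8, 29.3 and 28.4 CPM in V1 to V4 (log2 fold change -0.94 ± 0.13, edgeR adjusted p 9.75e-04). The insulin receptor Insr had 77.4, 75.9, 69.8 and 70.4 CPM in C1 to C4 and 56.5, 49.9, 54.6 and 59.8 CPM in V1 to V4 (log2 fold change -0.41 ± 0.062, edgeR adjusted p 0.00132). Both were lower in every HFpEF library than in any control. Igfbp7 (0.57 ± 0.10) and Grb10 (0.37 ± 0.079) rose, and Irs1 (0.24 ± 0.15), Irs2 (0.64 ± 0.22) and Igf1 (0.076 ± 0.13) were not called. Single libraries decided the edgeR calls of Esrra (without C3, C4, V1, V2, V3 or V4, adjusted p up to 0.0822) and Ppard (without C1, C2, C3, V3 or V4, adjusted p up to 0.115). Under other scalings the sign turned for Esrra (0.021 with effective lengths, 0.053 on rescaled coding TPM) and Grb10 (-0.048 on log2(TPM + 1), -0.072 on log2(TPM + 0.1)).

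The unfolded protein response handles misfolded protein in the endoplasmic reticulum. Of 29 genes tested, 7 rose (2 to 4 without C2, C3, C4, V1, V2, V3 or V4, 3 with effective lengths), 1 fell and 21 were not called (median 0.085, but -0.11 and -0.16 on the TPM scales). Atf6 (0.52 ± 0.095), one of its sensors, the asparagine synthetase Asns (0.85 ± 0.20) and the isomerase Pdia3 (0.26 ± 0.072) rose and Chac1 (-0.79 ± 0.21) fell. Xbp1, a transcription factor of this response that is activated by splicing, had 40.04, 41.6, 41.5 and 38.3 CPM in C1 to C4 and 41.8, 42.3, 36.6 and 37.7 CPM in V1 to V4 (log2 fold change -0.028 ± 0.069, edgeR adjusted p 0.812), and its spliced form was not measured separately. Its sensor Ern1 (-0.038 ± 0.14), Atf4 (0.16 ± 0.067), Ddit3 (0.085 ± 0.14) and the chaperone Hspa5 (0.039 ± 0.10) were not called. Of 21 cytosolic chaperones, 3 rose, 0 fell and 18 were not called (median 0.074, but -0.019 and -0.020 on the TPM scales), the rises being those of Hsp90aa1 (0.33 ± 0.082), Hspa4 (0.20 ± 0.046) and Dnajb5 (0.41 ± 0.10), while Hspa1a (-0.16 ± 0.34) was not called. In edgeR fits without 1 library, calls were lost for Pdia3 (without C2, C3, C4 or V2, adjusted p up to 0.0693) and Chac1 (without C2, C3, V1 or V3, adjusted p up to 0.0670).

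Of 32 antioxidant and redox genes, 5 rose (2 to 3 without C3, C4, V2 or V3, 2 with effective lengths), 4 fell (7 without C1, 1 with effective lengths) and 23 were not called (median -0.049, but 0.025 on rescaled coding TPM). The extracellular superoxide dismutase Sod3 had 34.2, 36.9, 36.9 and 37.01 CPM in C1 to C4 and 56.3, 56.2, 50.1 and 55.5 CPM in V1 to V4 (log2 fold change 0.59 ± 0.071, edgeR adjusted p 5.38e-04). Every HFpEF library exceeded every control. Srxn1 (0.39 ± 0.064) and Gpx3 (0.34 ± 0.096) rose, and Nnt (-0.38 ± 0.062) and Msrb2 (-0.43 ± 0.073) fell. Sod2 (-0.015 ± 0.079), Hmox1 (0.064 ± 0.26) and the oxidases Nox4 (0.65 ± 0.35) and Cybb (0.40 ± 0.13) were not called. Leaving out 1 library ended the edgeR calls of Gpx3 (without C3, C4 or V2, adjusted p up to 0.0613). The sign of the change was not kept under every scaling for Msrb2 (0.66 with effective lengths, 0.17 on rescaled coding TPM).

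Protein breakdown genes changed in both directions. Of 36 proteasome subunits, 1 rose, 6 fell (12 without C1, 3 without C2, C4, V1, V3 or V4, 2 with effective lengths) and 29 were not called, against 10.3% lower among all genes (median -0.096). Psme1 (-0.42 ± 0.085), Psmc5 (-0.35 ± 0.078) and Psmd4 (-0.36 ± 0.090) fell, Psmd8 (0.22 ± 0.060) rose, and the catalytic subunits Psmb5 (-0.20 ± 0.10) and Psmb8 (0.18 ± 0.12) were not called. Of 26 autophagy and mitophagy genes, 5 rose, 5 fell (1 to 2 without C2, C4, V1, V2 or V3, 2 with effective lengths) and 16 were not called (median 0.0089, but -0.14 and -0.18 on the TPM scales, -0.011 without C4, just below 0 without V2). Fbxo32, a ubiquitin ligase of muscle wasting, had 80.5, 73.6, 71.5 and 73.1 CPM in C1 to C4 and 44.96, 44.7, 50.4 and 58.7 CPM in V1 to V4 (log2 fold change -0.59 ± 0.10, edgeR adjusted p 0.00273). The HFpEF values did not overlap the control values and were all lower. Trim63 (-0.16 ± 0.11), the other such ligase, was not called. Bnip3 (0.34 ± 0.056), Bnip3l (0.36 ± 0.078) and Becn1 (0.25 ± 0.043) rose, and Sqstm1 (-0.23 ± 0.071) and Pink1 (-0.24 ± 0.080) fell. Of 16 iron genes, 3 rose (1 without V1 or V3, 0 with effective lengths), 1 fell and 12 were not called (median 0.043, but -0.087 and -0.13 on the TPM scales). Besides Tfrc, Ncoa4 (0.38 ± 0.10), which releases iron from ferritin, and the haem synthesis gene Fech (0.53 ± 0.16) rose, and the iron exporter Slc40a1 (-0.66 ± 0.13) fell. Tfrc and Fech are also active in maturing red cells, whose markers rose, and the part of these cells in the 2 rises was not tested. Of the HFpEF libraries, Tfrc was highest in V3 (45.8 CPM) and lowest in V1 (24.4 CPM). The red cell marker sum was highest in V1 (14150 CPM). Calls lost with 1 library left out, by edgeR, were those of Psmd8 (without C4 or V3, adjusted p up to 0.0654), Sqstm1 (without C2, C4, V1, V2 or V3, adjusted p up to 0.111), Pink1 (without C2, C3, C4, V1, V2, V3 or V4, adjusted p up to 0.126), Ncoa4 (without V1 or V3, adjusted p up to 0.0582) and Fech (without C3, C4, V1 or V3, adjusted p up to 0.0983).

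Macrophage genes were higher in HFpEF. Mrc1, the mannose receptor of resident macrophages, had 12.5, 9.66, 10.2 and 9.62 CPM in C1 to C4 and 20.5, 23.1, 18.3 and 17.9 CPM in V1 to V4 (log2 fold change 0.93 ± 0.12, edgeR adjusted p 6.34e-04). Emr1, the F4/80 antigen, had 2.31, 1.58, 1.85 and 1.56 CPM in C1 to C4 and 3.46, 3.37, 3.10 and 3.25 CPM in V1 to V4 (log2 fold change 0.85 ± 0.15, edgeR adjusted p 0.00278). No HFpEF value of either gene reached down to the controls. Cd68 (0.55 ± 0.13) and Csf1r (0.39 ± 0.12) rose, as did Ccr2 (1.12 ± 0.32), the receptor of recruited monocytes, and the chemokines Ccl8 (1.598 ± 0.43), Ccl9 (1.25 ± 0.19) and Ccl6 (0.87 ± 0.16). Neutrophil markers came to 2.18 to 6.10 CPM in controls and 0.677 to 2.68 CPM in HFpEF with overlap, and S100a9 (-1.63 ± 0.47) fell. Single libraries decided the edgeR calls of Csf1r (without C2, C3, C4, V1, V2, V3 or V4, adjusted p up to 0.101), Ccr2 (without C2, C3, C4 or V2, adjusted p up to 0.0823), Ccl8 (without C2, C3, C4 or V2, adjusted p up to 0.0657) and S100a9 (without C1, C4, V1, V3 or V4, adjusted p up to 0.0789).

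Complement genes rose too. C1qa is itself among the macrophage markers summed above, so its rise is counted in both results. Of 18 tested, 9 rose, 0 fell and 9 were not called (median 0.57). C1qa had 27.8, 30.05, 27.3 and 27.5 CPM in C1 to C4 and 38.4, 53.1, 46.1 and 45.3 CPM in V1 to V4 (log2 fold change 0.70 ± 0.097, edgeR adjusted p 9.22e-04). Its partners C1qb (0.79 ± 0.092) and C1qc (0.73 ± 0.11) rose as well, and macrophages are the main source of all 3. C3ar1 (0.74 ± 0.18), a receptor for complement fragments, and the inhibitors Serping1 (0.61 ± 0.15) and Cd55 (0.63 ± 0.15) rose. Complement C3 (0.57 ± 0.20) was not called.

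Classic inflammatory cytokines were not called higher. Of 34 cytokine, chemokine and adhesion genes tested, 7 rose (4 without C2, C3 or C4, 4 with effective lengths), 2 fell and 25 were not called (median 0.13, but -0.0075 and -0.039 on the TPM scales). Il1b had 0.434, 0.614, 0.773 and 1.11 CPM in C1 to C4 and 0.172, 0.303, 0.167 and 0.174 CPM in V1 to V4 (log2 fold change -1.84 ± 0.41, edgeR adjusted p 0.00920), low in all libraries and lower in HFpEF. Tnf (-0.037 ± 0.56) and Ccl2 (-0.29 ± 0.55) were not called, and Il6 was listed at 0 in 7 of the 8 libraries. Cxcl12 (0.67 ± 0.11), which retains leukocytes and progenitors, and the adhesion molecule Icam1 (0.43 ± 0.11) rose, and Vcam1 (0.084 ± 0.15) was not called.

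Interferon-stimulated genes, which cells switch on against viruses, rose in part. Of 33 tested, 11 rose (7 without V3, 6 with effective lengths), 1 fell and 21 were not called (median 0.23). Isg15, a ubiquitin-like modifier, had 3.16, 2.65, 2.26 and 2.61 CPM in C1 to C4 and 6.14, 6.19, 6.49 and 3.68 CPM in V1 to V4 (log2 fold change 1.07 ± 0.19, edgeR adjusted p 0.00248). Irf7, the transcription factor that amplifies the response, had 11.8, 9.73, 9.56 and 10.7 CPM in C1 to C4 and 18.1, 17.5, 17.7 and 19.2 CPM in V1 to V4 (log2 fold change 0.79 ± 0.11, edgeR adjusted p 9.98e-04). Groups were apart for both genes, although V4 was well below the other HFpEF libraries for Isg15. Ifi27l2a (0.92 ± 0.17) and the antiviral enzyme Rsad2 (0.88 ± 0.19) rose, and the interferon gamma target Iigp1 (-0.65 ± 0.15) fell. Of 17 antigen presentation genes, 1 rose, 1 fell (3 without V2) and 15 were not called (median 0.076, but -0.011 and -0.075 on the TPM scales, -0.018 without V2). The protease Ctss (1.16 ± 0.20) rose and H2-Q4 (-0.42 ± 0.12), a class I gene with near-identical relatives and therefore uncertain, fell. H2-K1 (-0.51 ± 0.20), B2m (0.16 ± 0.14), H2-Aa (0.31 ± 0.18) and Cd74 (0.28 ± 0.16) were not called. In edgeR fits without 1 library, calls were lost for H2-Q4 (without C1, C2, V1, V3 or V4, adjusted p up to 0.0893).

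Most proliferation genes rose, several of them from very low levels. Of 43 tested, 27 rose, 2 fell and 14 were not called, and the median was 1.29, the highest of the 48 lists. It was 0.11 on log2(TPM + 1), below complement (0.21), tubulin (0.20), matricellular (0.15) and mitochondrial DNA genes (0.12), and 0.52 on rescaled coding TPM, below complement (0.53). With log2(TPM + 0.1) it was 0.56. Ube2c, which marks mitotic proteins for destruction, had 0.787, 0.501, 0.584 and 0.642 CPM in C1 to C4 and 3.64, 4.70, 6.78 and 4.65 CPM in V1 to V4 (log2 fold change 2.97 ± 0.34, edgeR adjusted p 4.53e-04). Cdk1, the kinase that drives mitosis, had 0.638, 0.388, 0.536 and 0.307 CPM in C1 to C4 and 1.72, 4.13, 4.69 and 3.14 CPM in V1 to V4 (log2 fold change 2.87 ± 0.36, edgeR adjusted p 6.62e-04). Ccnb2, a cyclin that activates it, had 0.366, 0.436, 0.410 and 0.540 CPM in C1 to C4 and 1.48, 1.87, 3.36 and 2.86 CPM in V1 to V4 (log2 fold change 2.45 ± 0.28, edgeR adjusted p 4.53e-04). All HFpEF values exceeded the controls, with V1 lowest and V3 highest. Top2a (2.42 ± 0.47), Tpx2 (2.48 ± 0.26), Prc1 (2.90 ± 0.43), Aurkb (2.59 ± 0.34) and Ccna2 (2.43 ± 0.31) rose as well. Cdkn1a, the cell cycle inhibitor p21, had 65.3, 63.7, 55.3 and 49.4 CPM in C1 to C4 and 115, 143, 152 and 138 CPM in V1 to V4 (log2 fold change 1.23 ± 0.14, edgeR adjusted p 4.41e-04). Although an inhibitor, Cdkn1a is counted among the 27 rises of this list, and also among the glucocorticoid genes below. Pcna (0.065 ± 0.085), which serves DNA replication and repair, was not called.

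Promoters of proliferation genes often hold a CCAAT box together with the cell cycle element TTTGAA, and those of interferon genes the element GAAANNGAA. The 250 bases before the start of 3 proliferation genes and 2 interferon genes are shown because their genes rose together. Sequences are from RefSeq on GRCm38.p6, written 5′ to 3′ on the strand of the gene, and capitals mark CCAAT and TTTGAA or their reverse complements ATTGG and TTCAAA in the first 3, and GAAANNGAA or its reverse complement TTCNNTTTC in the last 2. Overlapping matches are run together. Ube2c lies at chr2:164769679-164769928, plus strand, Cdk1 at chr10:69352913-69353162, minus strand, Ccnb2 at chr9:70421555-70421804, minus strand, Isg15 at chr4:156200819-156201068, minus strand and Rsad2 at chr12:26456453-26456702, minus strand.
Ube2c: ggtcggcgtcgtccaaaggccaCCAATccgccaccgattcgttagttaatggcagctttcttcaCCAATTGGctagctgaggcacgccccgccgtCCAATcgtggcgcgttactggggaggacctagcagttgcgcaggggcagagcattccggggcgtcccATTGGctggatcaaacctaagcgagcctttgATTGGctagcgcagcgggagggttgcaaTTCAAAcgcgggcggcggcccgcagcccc
Cdk1: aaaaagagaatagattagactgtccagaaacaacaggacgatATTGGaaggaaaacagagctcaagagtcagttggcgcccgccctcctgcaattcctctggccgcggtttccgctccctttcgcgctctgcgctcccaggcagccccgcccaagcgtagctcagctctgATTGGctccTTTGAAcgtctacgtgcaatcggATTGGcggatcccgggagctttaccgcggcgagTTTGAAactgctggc
Ccnb2: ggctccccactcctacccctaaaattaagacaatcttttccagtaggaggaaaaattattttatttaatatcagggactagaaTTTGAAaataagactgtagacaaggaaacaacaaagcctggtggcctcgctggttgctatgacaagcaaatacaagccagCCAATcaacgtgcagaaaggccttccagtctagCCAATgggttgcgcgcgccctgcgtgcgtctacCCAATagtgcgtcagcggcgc
Isg15: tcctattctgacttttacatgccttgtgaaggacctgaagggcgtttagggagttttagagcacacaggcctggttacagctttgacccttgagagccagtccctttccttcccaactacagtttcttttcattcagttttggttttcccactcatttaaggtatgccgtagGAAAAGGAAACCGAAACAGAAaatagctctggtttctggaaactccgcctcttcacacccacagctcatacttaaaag
Rsad2: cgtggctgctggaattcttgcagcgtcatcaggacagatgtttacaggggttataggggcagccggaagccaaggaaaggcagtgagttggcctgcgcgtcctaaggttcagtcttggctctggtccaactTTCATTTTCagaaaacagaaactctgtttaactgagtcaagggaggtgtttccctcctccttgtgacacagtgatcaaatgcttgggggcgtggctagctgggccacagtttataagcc

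Of the 27 genes of the proliferation list that rose, Cdkn1a included, 22 had a promoter in the RefSeq table used here. Of these, 17 (77.3%) held CCAAT and 9 (40.9%) held TTTGAA on either strand, each of the 9 together with CCAAT. Among all 10421 tested genes with a promoter in the table the shares were 40.2%, 12.9% and, for both, 4.89%. Over all 27025 genes of the table they were 37.5%, 18.3% and 6.45%. Of the 11 interferon genes that rose, 9 had a promoter and 5 (55.6%) held GAAANNGAA, against 7.55% of tested genes and 8.18% of the table. Among all tested members of the interferon list, called or not, 13 of 22 promoters (59.1%) held it. Among all tested proliferation genes, 25 of 34 promoters (73.5%) held CCAAT and 9 (26.5%) held TTTGAA. A match describes letters in the window and does not show that a factor bound there.

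Red cell genes also rose. Alas2, the haem synthesis enzyme of red cell precursors, had 29.2, 20.8, 17.7 and 23.7 CPM in C1 to C4 and 209, 71.3, 137 and 60.5 CPM in V1 to V4 (log2 fold change 2.38 ± 0.35, edgeR adjusted p 0.00115). Slc4a1, the anion exchanger of the red cell membrane, had 0.963, 0.533, 0.536 and 1.14 CPM in C1 to C4 and 10.2, 4.87, 12.2 and 3.16 CPM in V1 to V4 (log2 fold change 3.26 ± 0.44, edgeR adjusted p 8.54e-04). V1 was the highest library and V4 the lowest for Alas2, while Slc4a1 was highest in V3 and lowest in V4. The 3 proliferation genes given above were highest in V3 and lowest in V1. Among the 226 genes that rose by at least 2-fold, 92 (40.7%) had V3 highest and V1 lowest of the 4 HFpEF libraries, against 8.01% of all genes tested. The order V1, V3, V2, V4 of Alas2 was found in 16 of the 226 (7.08%), against 4.12% of all genes tested. Both orders were read from genes that are among the 226. The first fixes only the highest and lowest library and the second all 4 ranks, so their shares cannot be set against each other. No conclusion on the source of the cells is drawn from them. Whether proliferating cells were cells of the heart or of its blood was not tested.

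Clock genes depend on the hour at which a heart is taken. Of 18 tested, 1 rose, 5 fell (3 without C3, C4 or V3) and 12 were not called (median -0.22). Per3 (-0.63 ± 0.12), Tef (-0.44 ± 0.069), Nr1d2 (-0.40 ± 0.079) and Dbp (-0.51 ± 0.16), which peak together in the later light phase, fell, and their antagonist Nfil3 had 6.44, 6.56, 7.63 and 7.02 CPM in C1 to C4 and 8.51, 9.03, 9.50 and 15.1 CPM in V1 to V4 (log2 fold change 0.61 ± 0.16, edgeR adjusted p 0.0178), with V4 the highest. Without V4 the log2 fold change of Nfil3 was 0.39. Arntl, which peaks at the opposite time, had 0.326, 1.36, 1.48 and 0 CPM in C1 to C4 and 1.77, 0.101, 2.73 and 2.36 CPM in V1 to V4 (log2 fold change 1.14 ± 1.04, edgeR adjusted p 0.463) and was not called, nor were Per1 (-0.11 ± 0.098), Per2 (-0.27 ± 0.10) and Nr1d1 (0.14 ± 0.16). The part of the time of collection in these values was not tested. Leaving out 1 library ended the edgeR calls of Dbp (without C2, C3, C4, V3 or V4, adjusted p up to 0.110).

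Genes induced by glucocorticoids rose in part. Of 16 tested, 6 rose (Cdkn1a among them), 1 fell and 9 were not called (median 0.27). Fkbp5, which restrains the glucocorticoid receptor, had 89.3, 52.4, 60.8 and 71.5 CPM in C1 to C4 and 106, 132, 131 and 128 CPM in V1 to V4 (log2 fold change 0.86 ± 0.14, edgeR adjusted p 0.00194). Sgk1, a kinase that activates sodium channels, had 80.6, 66.96, 83.5 and 62.9 CPM in C1 to C4 and 144, 149, 142 and 122 CPM in V1 to V4 (log2 fold change 0.92 ± 0.099, edgeR adjusted p 4.12e-04). HFpEF values lay above the controls for both genes, and Errfi1 (0.54 ± 0.11) rose. Tsc22d3 (0.30 ± 0.11) was not called. Of 23 immediate early genes, which respond within minutes to handling or excision, 2 rose, 0 fell and 21 were not called (median 0.094, but -0.071 and -0.099 on the TPM scales), and the rises were those of Dusp6 (0.98 ± 0.26) and Fosl2 (0.45 ± 0.13). Fos (-0.62 ± 0.44) and Egr1 (-0.14 ± 0.52) were not called. Calls lost with 1 library left out, by edgeR, were those of Dusp6 (without V1, adjusted p up to 0.0512) and Fosl2 (without C2, C3, V3 or V4, adjusted p up to 0.0783).

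The series concerns the deacetylase HDAC6, which removes acetyl groups from tubulin. Hdac6 had 14.8, 14.4, 15.8 and 14.99 CPM in C1 to C4 and 13.05, 10.8, 11.4 and 11.3 CPM in V1 to V4 (log2 fold change -0.36 ± 0.085, edgeR adjusted p 0.0117). Every HFpEF library was below every control. Of 19 genes tested in a list of histone deacetylases, sirtuins and related genes, 1 rose, 8 fell (5 without C3, C4 or V3, 2 with effective lengths) and 10 were not called (median -0.28). Hdac5 (-0.30 ± 0.054), Hdac11 (-0.40 ± 0.080), Hdac4 (-0.40 ± 0.11) and the mitochondrial sirtuin Sirt4 (-0.42 ± 0.090) fell, Hdac7 (0.27 ± 0.055) rose, and Nampt (-0.28 ± 0.066), which makes the sirtuin cofactor NAD, fell. Alpha-tubulin is a substrate of HDAC6 in the cytoplasm. Of 13 tubulin chains tested, which include alpha (Tuba) and beta (Tubb) chains, 7 rose, 0 fell and 6 were not called (median 0.42). Tubb5 had 69.1, 73.7, 78.7 and 78.8 CPM in C1 to C4 and 101, 107, 109 and 102 CPM in V1 to V4 (log2 fold change 0.48 ± 0.058, edgeR adjusted p 5.21e-04). Tuba1a had 69.8, 74.3, 84.8 and 84.7 CPM in C1 to C4 and 113, 117, 105 and 105 CPM in V1 to V4 (log2 fold change 0.49 ± 0.078, edgeR adjusted p 0.00184). Groups did not overlap for either. Tubb2a (0.47 ± 0.060), Tubb6 (0.49 ± 0.10), Tuba1b (0.34 ± 0.084), Tuba1c (0.53 ± 0.094) and Tuba8 (0.61 ± 0.14) rose. Tubulin genes resemble each other closely, so counts of single chains are uncertain. Atat1 (0.058 ± 0.083), which adds the acetyl group, was not called. Single libraries decided the edgeR calls of Hdac4 (without C3, C4, V1 or V3, adjusted p up to 0.0754). Scaling turned the sign of Hdac7 (-0.13 on log2(TPM + 1), -0.14 on log2(TPM + 0.1)).

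More vessel growth genes rose than fell, against 10.9% higher and 10.3% lower among all genes. Of 34 tested, 9 rose (3 to 5 without C2, C4, V1 or V3, 3 with effective lengths), 3 fell and 22 were not called (median 0.086, but -0.063 and -0.14 on the TPM scales). The Notch target Hey1 had 12.4, 11.97, 16.7 and 14.9 CPM in C1 to C4 and 28.1, 25.3, 23.7 and 22.7 CPM in V1 to V4 (log2 fold change 0.83 ± 0.17, edgeR adjusted p 0.00562). Pdgfd, a growth factor for fibroblasts and mural cells, had 7.61, 5.40, 5.09 and 5.30 CPM in C1 to C4 and 10.8, 8.04, 11.03 and 13.9 CPM in V1 to V4 (log2 fold change 0.90 ± 0.19, edgeR adjusted p 0.00673). No control reached the lowest HFpEF value. Notch1 (0.39 ± 0.091) rose, and Fgf1 (-0.28 ± 0.063), Fgf16 (-0.57 ± 0.14) and Angpt1 (-0.73 ± 0.18), which stabilises vessels, fell. Vegfa (-0.13 ± 0.17) and Apln (0.28 ± 0.25) were not called. The endothelial genes Pecam1 (0.52 ± 0.10) and Cdh5 (0.44 ± 0.11), both among the endothelial markers summed above, rose. Of 11 polyamine genes, 1 rose, 0 fell and 10 were not called (median 0.050). Smox (0.65 ± 0.066), which oxidises spermine, rose, and Odc1 (0.21 ± 0.080) was not called.

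Liver plasma protein genes were low and unevenly spread. Alb, albumin, had 20.7, 17.7, 43.7 and 46.6 CPM in C1 to C4 and 6.96, 0.775, 0.988 and 4.81 CPM in V1 to V4 (log2 fold change -3.26 ± 1.00, edgeR adjusted p 0.0367). Fgb, a fibrinogen chain, had 2.93, 2.63, 4.48 and 4.98 CPM in C1 to C4 and 0.585, 0.0337, 0.137 and 0.208 CPM in V1 to V4 (log2 fold change -3.96 ± 0.94, edgeR adjusted p 0.0125). All HFpEF values were below the controls for both genes, and their source in heart tissue was not tested. In edgeR fits without 1 library, calls were lost for Alb (without C3, C4, V2, V3 or V4, adjusted p up to 0.0940).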

How the data were processed

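The authors trimmed the reads of stranded poly(A) libraries with fastp, quantified them with Salmon (1.6.0 by the submitters' processing notes) against mouse GENCODE transcripts and summed them to genes with tximport. The notes also list a human genome build, which the mouse gene symbols go against. The deposited tables hold estimated counts per gene, which were rounded to whole numbers here, TPM, and effective gene lengths in bases, with 1 column per mouse and 0 columns left unused. Of 29564 rows, 28634 matched 1 gene of GENCODE M21, and 19 rows were named by a whole number and had no gene.

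Counts of all 12 libraries (3 groups, which share 1 estimate of the spread) were scaled by TMM, filtered with filterByExpr at its defaults (14333 genes kept) and tested with the quasi-likelihood test of edgeR 4.0.16 in R 4.3.3. P-values were adjusted over all tested genes by Benjamini and Hochberg, and a gene was called at an adjusted p under 0.05. The value after ± is the size of the log2 fold change divided by the square root of the F statistic of this test. CPM are counts over the scaled library total, in the usual unit. The code was tested on simulated counts. DESeq2 1.42.0 and limma 3.58.1 served as alternatives, with the TPM scales, effective lengths, other filters and each library left out. Each library came from a different mouse by its number, and totals ran from 61.2 to 68.2 M counts, so counting error is largest for genes of low CPM.

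Genes were named by rule. Among protein-coding genes called, with at least 5 CPM on average, no overlap of groups and the call kept without any 1 library, these were the 12 with the largest rise, the 12 with the largest fall and the 8 with the highest TPM. From each of 48 lists the key genes and the 4 called genes with the smallest adjusted p were added. Some genes of this rule are not reported here. The other genes of the rule are all named, and the further list members and marker genes were chosen after their values were seen. The comparison, lists and markers were chosen with earlier results of these data known. Sharing of sequence between genes was checked with BLAST 2.17.0 (98% identity over 50 bases). Such a stretch was shared with many other genes by Nos1 (596), Timp3 (581), Kcnj2 (550), Fam46c (507), Camk2a (471) and Ryr2 (272), among others. The part of this sharing in their counts was not tested.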

Additional observations from a re-analysis of the deposited data

Results flagged for a closer look

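Among 840 groups of 4 values (each named gene and list score in each group), 45 had 1 library so far from the other 3 that its gap passed Dixon's critical value for 4 samples. Chance alone gives about 1 such group in 20, and no test of the libraries was made from these values. C1 lay above the other controls for Ednrb at 28.04 CPM (the others 22.4 to 22.9), Lama2 at 33.8 CPM (the others 16.4 to 17.6), Itgb2 at 3.84 CPM (the others 2.72 to 2.80) and Timp3 at 475 CPM (the others 368 to 375). C1 also lay above the other controls for Pdk4 at 588 CPM (the others 434 to 448), Pcna at 19.4 CPM (the others 17.4 to 17.7) and Pdgfd at 7.61 CPM (the others 5.09 to 5.40). C1 lay below the other controls for Kcnj2 at 18.4 CPM (the others 20.5 to 20.8), Pfkfb2 at 29.7 CPM (the others 36.9 to 37.99), Pygm at 711 CPM (the others 825 to 837) and Irs1 at 10.8 CPM (the others 14.1 to 14.6). C1 also lay below the other controls for Sod3 at 34.2 CPM (the others 36.9 to 37.01). C2 lay above the other controls for Gdf15 at 0.953 CPM (the others 0.529 to 0.584), Cyc1 at 284 CPM (the others 178 to 194) and Lpl at 4624 CPM (the others 3988 to 4048). C3 lay above the other controls for Tfrc at 11.1 CPM (the others 9.76 to 9.93) and Sdha at 687 CPM (the others 638 to 645). C3 lay below the other controls for Pfkfb1 at 22.4 CPM (the others 27.1 to 27.7). C4 lay above the other controls for Trim63 at 74.6 CPM (the others 68.8 to 69.6) and Nr1d2 at 101 CPM (the others 88.3 to 89.5). V1 lay above the other HFpEF libraries for Plxnb1 at 25.1 CPM (the others 17.7 to 18.99), Skil at 21.5 CPM (the others 19.9 to 20.1) and Ccl2 at 1.79 CPM (the others 0.532 to 0.708). V1 lay below the other HFpEF libraries for Des at 1047 CPM (the others 1194 to 1203), Tgm2 at 236 CPM (the others 297 to 304) and Fkbp5 at 106 CPM (the others 128 to 132). V2 lay above the other HFpEF libraries for Il1b at 0.303 CPM (the others 0.167 to 0.174), Ifi27l2a at 16.3 CPM (the others 9.50 to 9.97), Ccr2 at 4.18 CPM (the others 2.60 to 2.63) and S100a9 at 1.43 CPM (the others 0.547 to 0.625). V2 lay below the other HFpEF libraries for Ern1 at 5.38 CPM (the others 7.23 to 7.46). V3 lay above the other HFpEF libraries for Ankrd1 at 49.1 CPM (the others 0 to 4.31), Col4a2 at 434 CPM (the others 365 to 375), Bdh1 at 62.1 CPM (the others 41.95 to 43.9) and Ppm1k at 26.4 CPM (the others 23.6 to 23.8). V3 also lay above the other HFpEF libraries for Aurkb at 1.79 CPM (the others 0.877 to 0.995). V3 lay below the other HFpEF libraries for Sod3 at 50.1 CPM (the others 55.6 to 56.3). V4 lay above the other HFpEF libraries for Nfil3 at 15.1 CPM (the others 8.51 to 9.50). V4 lay below the other HFpEF libraries for Nostrin at 8.42 CPM (the others 12.5 to 13.1), Fbn1 at 29.3 CPM (the others 35.6 to 35.98) and Isg15 at 3.68 CPM (the others 6.14 to 6.49). By list score, the mean log2(CPM + 1) of a list centred on the 8 libraries, C1 had -0.15 for the fatty acid oxidation genes (the others of its group 0.068 to 0.078), C1 had -0.17 for the glucose metabolism genes (the others of its group 0.082 to 0.12), V2 had -0.089 for the cytosolic chaperone genes (the others of its group 0.11 to 0.14) and V2 had 0.40 for the complement genes (the others 0.14 to 0.18).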

How the results depend on the processing

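The 3033 calls of the comparison (1561 higher, 1472 lower) stayed within 1.5 times under DESeq2 (3755), RLE scaling (3039), no filter on low counts (2544), a fit of the 8 libraries (2573) and without mitochondrial and globin genes (3043). They did not with effective lengths (1445, of which 809 higher and 636 lower), on log2(TPM + 1) (172, 51 and 121), on log2(TPM + 0.1) (301, 93 and 208) and on rescaled TPM of protein-coding genes (1085, 668 and 417), and the cause was not tested. Of the calls, 51.5% were higher, against 29.7%, 30.9% and 61.6% on these 3 TPM scales, where the median log2 fold change of all genes was -0.069, -0.17 and 0.025. With 1 library left out, 1986 to 3992 genes were called, 1067 to 2054 of them higher and 919 to 1938 lower, most without C1 and fewest without C4. No paired analysis was possible because the groups share no animal number.

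Among named genes, P4ha1 (-0.040 and -0.059), Grb10 (-0.048 and -0.072), Hdac7 (-0.13 and -0.14) and Sdc3 (-0.14 and -0.14) turned from higher to lower on log2(TPM + 1) and log2(TPM + 0.1), Sdc3 also with effective lengths (-0.13). Esrra (0.021 and 0.053) and Msrb2 (0.66 and 0.17) turned from lower to higher with effective lengths and on rescaled TPM. None of these values was called, by edgeR with effective lengths or by limma on TPM. Of the tested genes at or below 2.04 CPM on average, 11.4% were called, against 30.3% of those above 24.1 CPM. With 4 mice a group, diet, L-NAME and any shared handling of a group cannot be told apart.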
